A study of Mus musculus with 11 samples.

Results

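The 10 B-lineage transcription factors Ebf1, Pax5, Foxo1, Pou2af1, Spib, Lef1, Bach2, Irf4, Ikzf1 and Ikzf3 were followed across sorted bone marrow common lymphoid progenitors (CLPs), the cells from which lymphocytes develop. They were chosen by name with earlier results of these data known, so their counts beside those of all genes only describe them. Each was read from the probe set that carried its symbol alone and had the highest mean over the 11 microarrays. All 10 were measured, out of 22180 genes read in the same way. C57BL/6 mice received either CpG1826, an oligonucleotide that engages Toll-like receptor 9, at 50 µg per dose, or PBS as the control, on alternate days up to the sort on day 10. There were 3 arrays of Ly-6D+ CLPs after CpG, 2 of Ly-6D+ CLPs after PBS, 3 of Ly-6D- CLPs after CpG and 3 of Ly-6D- CLPs after PBS. The labels name no transgene or mutation in any group, and ages were not given in the sources used here. Replicates may be separate animals or pools, and both populations may come from the same animals, since the labels do not say. Every p therefore measures only the spread between these samples.

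B-cell identity is built by a small network of transcription factors. Ebf1 opens chromatin at B-lineage genes and Pax5, which it helps to activate, holds cells in the lineage and silences the genes of other fates. Foxo1 works beside Ebf1 and drives genes of the interleukin-7 receptor and of antigen receptor recombination, while Lef1, an HMG-box factor of the Wnt pathway, supports early B-cell progenitors. Spib is an Ets-family factor of B cells and plasmacytoid dendritic cells, and Pou2af1 is a coactivator that octamer-binding factors recruit in B cells. Irf4 and Bach2 act at later B-cell steps as well, Irf4 in light-chain rearrangement and plasma cells and Bach2 as a repressor of the plasma-cell and myeloid programmes. Ikzf1 (Ikaros) is already needed in multipotent progenitors, whereas its relative Ikzf3 (Aiolos) is known from later B-cell stages. Ly-6D is known to appear on the surface of CLPs as they turn to the B lineage. Whether the 2 sorted populations differ only in their stage along that network was not tested.

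The members lie on 6 chromosomes, with Foxo1 and Lef1 on chromosome 3, Bach2 and Pax5 on chromosome 4, Spib on chromosome 7, Pou2af1 on chromosome 9, Ebf1, Ikzf1 and Ikzf3 on chromosome 11 and Irf4 on chromosome 13 (GRCm38.p6). RefSeq promoter windows were at hand for 9 of the 10, Ikzf3 being the other one, as 14 windows of 250 bases before a transcript start. The windows of Spib, Pou2af1, Ebf1 and Pax5 are printed because these members differed most between the populations, and that of Foxo1 because it shares the EBF1 letters with Spib. They lie at chr7:44532072-44532321 (Spib, minus strand), chr9:51213440-51213689 (Pou2af1, plus strand), chr11:44617850-44618099 (Ebf1, plus strand), chr4:44710695-44710944 (Pax5, minus strand) and chr3:52268087-52268336 (Foxo1, plus strand) in GRCm38.p6, each read 5′ to 3′ towards the start, with motif matches in capitals.
Spib: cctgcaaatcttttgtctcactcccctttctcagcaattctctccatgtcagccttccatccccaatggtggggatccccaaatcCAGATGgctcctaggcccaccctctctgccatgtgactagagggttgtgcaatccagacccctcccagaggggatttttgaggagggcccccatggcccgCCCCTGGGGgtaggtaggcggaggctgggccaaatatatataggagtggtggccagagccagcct
Pou2af1: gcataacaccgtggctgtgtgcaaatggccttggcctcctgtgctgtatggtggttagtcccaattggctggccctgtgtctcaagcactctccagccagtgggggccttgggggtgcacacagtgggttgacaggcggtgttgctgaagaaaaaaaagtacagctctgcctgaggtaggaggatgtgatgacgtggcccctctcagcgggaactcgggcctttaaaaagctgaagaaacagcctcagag
Ebf1: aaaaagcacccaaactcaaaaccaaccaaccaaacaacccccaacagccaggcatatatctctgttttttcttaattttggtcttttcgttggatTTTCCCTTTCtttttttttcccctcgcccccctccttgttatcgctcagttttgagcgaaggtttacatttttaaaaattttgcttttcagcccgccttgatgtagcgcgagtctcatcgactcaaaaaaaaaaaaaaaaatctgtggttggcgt
Pax5: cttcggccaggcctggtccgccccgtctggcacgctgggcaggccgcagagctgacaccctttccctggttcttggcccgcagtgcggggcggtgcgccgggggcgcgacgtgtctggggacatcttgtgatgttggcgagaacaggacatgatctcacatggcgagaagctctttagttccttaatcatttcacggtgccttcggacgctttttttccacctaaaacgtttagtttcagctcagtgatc
Foxo1: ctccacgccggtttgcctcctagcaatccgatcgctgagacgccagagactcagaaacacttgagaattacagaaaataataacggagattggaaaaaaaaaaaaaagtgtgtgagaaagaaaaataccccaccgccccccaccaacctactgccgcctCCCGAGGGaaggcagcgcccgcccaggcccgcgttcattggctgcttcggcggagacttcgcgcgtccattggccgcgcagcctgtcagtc

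The search covered 10 motifs on both strands, and the share of all 32851 RefSeq windows of the same length that held each is given with it. The EBF1 letters CCCNNGGG stood in 11.8% of all windows and, among the members, in those of Foxo1 (bases -91 to -84 from the start), Ikzf1, and Spib, where 2 matches overlapped between bases -65 and -57. The E-box CAGNTG (44.8% of windows) was in Spib and Lef1, the Ets letters GAGGAA (23.3%) in Lef1, Ebf1 and Irf4, and the Ikaros letters TGGGAA (21.6%) in a second Ebf1 window. The TCF/LEF letters CTTTGA (13.8%) were in inner windows of Lef1 and Bach2, the STAT letters TTCNNNGAA (7.0%) in Bach2, and the IRF letters, GAAA and GAAA with 2 bases between them (3.0%), in Ebf1, at bases -155 to -146 of the printed window. In Lef1 the E-box and Ets matches overlapped by their last and first base. The FoxO letters GTAAACA (3.2%), the octamer ATTTGCAT (1.6%) and the Bach letters TGAGTCA (4.5%) were in no member window. The printed Pax5 and Pou2af1 windows held no match, which says only that these letters are not in these bases.

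Ly6d itself, the gene of the sorted protein, had a level of 12.57 ± 0.03 in Ly-6D+ CLPs after CpG and 12.58 ± 0.02 after PBS (SD, n = 3 and n = 2), against 7.72 ± 0.32 and 8.23 ± 0.24 in Ly-6D- CLPs after CpG and after PBS (SD, n = 3 each). All levels are RMA values on the log2 scale, on which 1 unit is a doubling, and they are compared only between arrays for the same gene. Array medians lay between 3.85 and 3.96, and the number of arrays limits the precision. Of the CLP-defining genes, Il7r and Flt3 had group means of at least 9.25 and 10.54 in all 4 groups, and the CpG changes of this list are given after those of Ebf1. Il7r averaged 10.71 in Ly-6D+ and 9.25 in Ly-6D- CLPs after CpG, and 10.74 and 10.06 after PBS. At a limma adjusted p below 0.05, 2 of the 5 measured were higher in Ly-6D+ CLPs after CpG and 1 lower. These calls covered 1.20% and 0.938% of all genes. After PBS 1 of the 5 was higher and 1 lower (1.18% and 0.798% of all genes). Kit, the receptor of stem cell factor, was lower in Ly-6D+ CLPs after CpG (-0.67, adjusted p = 0.016) and after PBS (-1.08, adjusted p = 0.0021). In bulk cells, fewer cells that express a gene and less of its RNA per cell cannot be told apart.

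**Figure D1:**
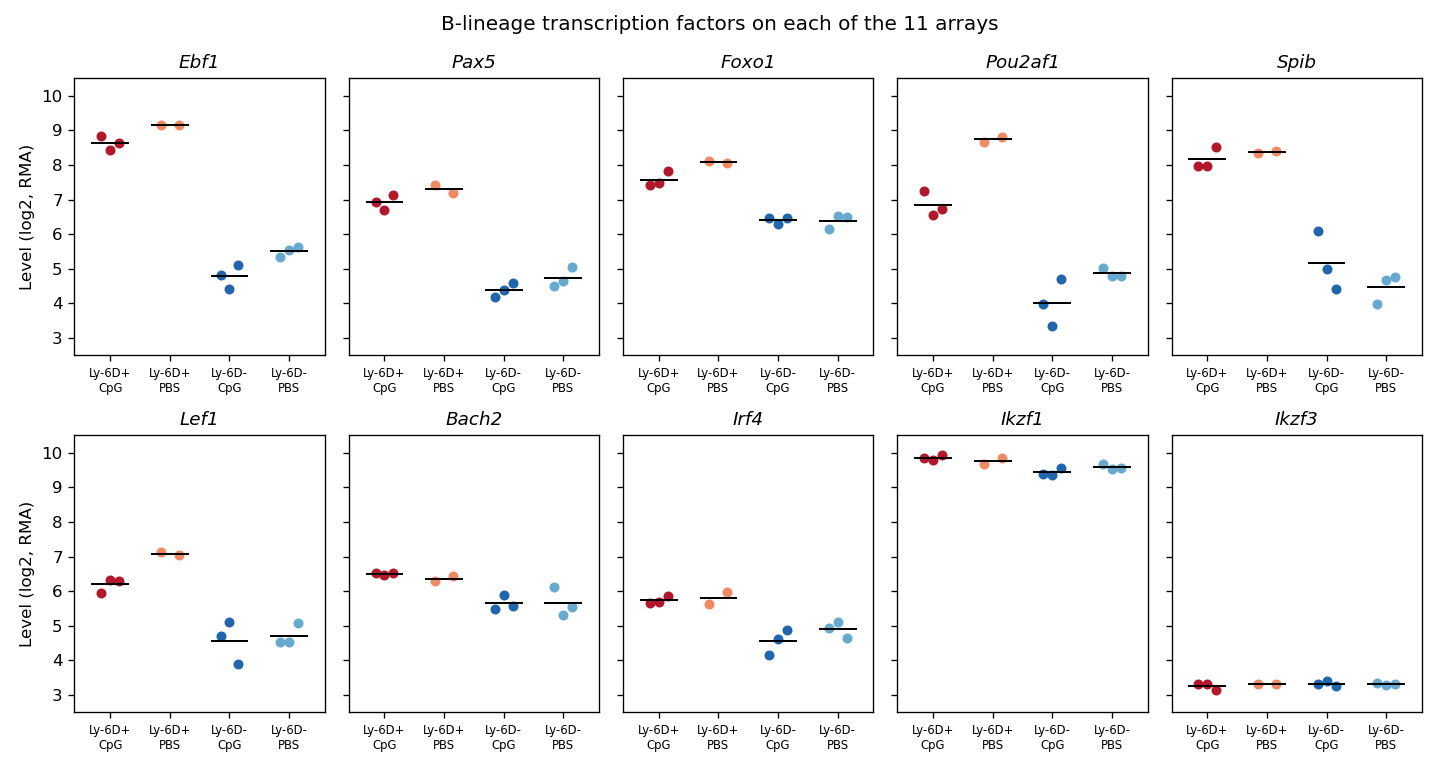
Level of each factor (log2, RMA) on each of the 11 arrays, by population and treatment, with points for arrays and lines for group means. Ebf1, Pax5, Foxo1, Pou2af1, Spib, Lef1, Bach2 and Irf4 lie higher on every Ly-6D+ array than on any Ly-6D- array, while Ikzf1 spans 0.56 and Ikzf3 0.24 over all arrays.

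The first comparison was between the populations. After CpG, 8 of the 10 factors, namely Ebf1, Spib, Pou2af1, Pax5, Lef1, Irf4, Foxo1 and Bach2, were higher in Ly-6D+ than in Ly-6D- CLPs at a limma adjusted p below 0.05, against 1.20% of all genes. After PBS 6 of these, all but Irf4 and Bach2, were higher, against 1.18% of all genes. None of the 10 was lower in either comparison. The median difference of the 10 on the log2 scale was 1.41 after CpG and 2.03 after PBS, where the medians over all genes were -0.00 and -0.01. Arrays of the populations did not overlap, with Ly-6D+ higher, for 9 factors after CpG (7.89% of all genes) and for 8 after PBS (12.9% of all genes). The comparisons after CpG and after PBS take their group means from different arrays, but share 1 variance estimate from all 11 arrays, and each shares its groups with the CpG comparisons given further on.

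**Figure D2:**
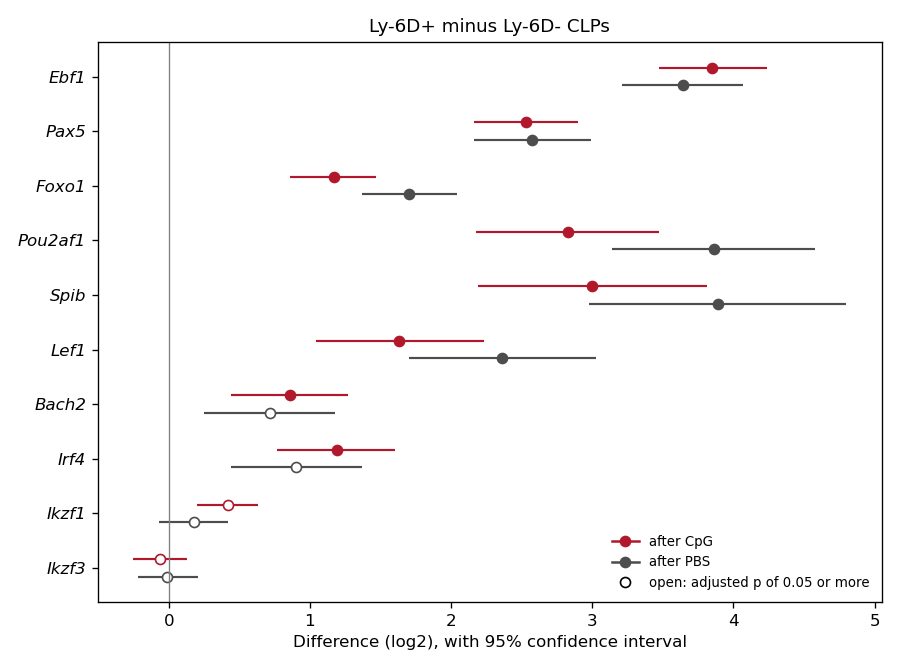
Difference in level (log2) between Ly-6D+ and Ly-6D- CLPs for each factor, after CpG and after PBS, with 95% confidence intervals from limma and filled points for an adjusted p below 0.05. Differences run from -0.06 for Ikzf3 after CpG to 3.89 for Spib after PBS.

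Ebf1, which starts the B-cell programme, had levels of 8.85, 8.43 and 8.62 in Ly-6D+ CLPs after CpG, against 4.82, 4.41 and 5.12 in Ly-6D- CLPs after CpG. After PBS its levels were 9.14 and 9.15 in Ly-6D+ CLPs, against 5.34, 5.53 and 5.64 in Ly-6D- CLPs. All 4 groups stood apart, in the falling order Ly-6D+ after PBS, Ly-6D+ after CpG, Ly-6D- after PBS and Ly-6D- after CpG. Ebf1 was 14.4-fold higher in Ly-6D+ CLPs after CpG (log2 difference 3.85, SE 0.17, adjusted p = 1.62e-06) and 12.5-fold higher after PBS (3.64, SE 0.19, adjusted p = 9.24e-06).

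Pax5, the commitment factor, had levels of 6.94, 6.71 and 7.12 in Ly-6D+ CLPs after CpG, against 4.18, 4.40 and 4.60 in Ly-6D- CLPs after CpG. Its levels after PBS were 7.43 and 7.20 in Ly-6D+ CLPs, against 4.51, 4.66 and 5.06 in Ly-6D- CLPs. The Ly-6D+ groups lay wholly above the Ly-6D- groups, and within Ly-6D- CLPs the treatments overlapped. Pax5 was 5.77-fold higher in Ly-6D+ CLPs after CpG (log2 difference 2.53, SE 0.17, adjusted p = 2.92e-05) and 5.96-fold higher after PBS (2.57, SE 0.19, adjusted p = 5.08e-05).

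Foxo1, the partner of Ebf1 at interleukin-7 receptor and recombination genes, had levels of 7.43, 7.49 and 7.82 in Ly-6D+ CLPs after CpG, against 6.48, 6.29 and 6.48 in Ly-6D- CLPs after CpG. The PBS arrays had 8.11 and 8.07 in Ly-6D+ CLPs, against 6.14, 6.53 and 6.49 in Ly-6D- CLPs. The treatments stood apart among the Ly-6D+ arrays and overlapped among the Ly-6D- arrays. Foxo1 was 2.24-fold higher in Ly-6D+ CLPs after CpG (log2 difference 1.17, SE 0.14, adjusted p = 0.00119) and 3.26-fold higher after PBS (1.70, SE 0.15, adjusted p = 2.25e-04). A second Foxo1 probe set gave smaller differences, of 0.67 after CpG, which did not pass (adjusted p = 0.0523), and of 1.0 after PBS (adjusted p = 0.0127).

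Lef1 had levels of 5.96, 6.33 and 6.30 in Ly-6D+ CLPs after CpG, against 4.70, 5.11 and 3.89 in Ly-6D- CLPs after CpG. In PBS-treated mice they were 7.12 and 7.04 in Ly-6D+ CLPs, against 4.53, 4.54 and 5.08 in Ly-6D- CLPs. The Ly-6D- arrays after CpG spread most, with an SD of 0.62, and their range took in all Ly-6D- arrays after PBS. Lef1 was 3.10-fold higher in Ly-6D+ CLPs after CpG (log2 difference 1.63, SE 0.27, adjusted p = 0.00969) and 5.14-fold higher after PBS (2.36, SE 0.30, adjusted p = 0.00234). The difference after CpG did not pass in a fit to the 2 groups compared alone (adjusted p = 0.0636).

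Spib, shared by B cells and plasmacytoid dendritic cells, had levels of 7.98, 7.97 and 8.53 in Ly-6D+ CLPs after CpG, against 6.09, 4.99 and 4.41 in Ly-6D- CLPs after CpG. In PBS-treated mice Spib was at 8.35 and 8.39 in Ly-6D+ CLPs, against 3.98, 4.68 and 4.77 in Ly-6D- CLPs. The first Ly-6D- array after CpG stood above the rest of its population but below every Ly-6D+ array. Spib was 7.99-fold higher in Ly-6D+ CLPs after CpG (log2 difference 3.0, SE 0.37, adjusted p = 0.00154) and 14.8-fold higher after PBS (3.89, SE 0.41, adjusted p = 7.52e-04), the largest difference of the 10 after PBS.

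Pou2af1, the octamer coactivator, had levels of 7.26, 6.55 and 6.74 in Ly-6D+ CLPs after CpG, against 3.98, 3.36 and 4.72 in Ly-6D- CLPs after CpG. After PBS they were 8.67 and 8.81 in Ly-6D+ CLPs, against 5.03, 4.80 and 4.80 in Ly-6D- CLPs. As with Ebf1, all 4 groups stood apart, in the same order. Pou2af1 was 7.10-fold higher in Ly-6D+ CLPs after CpG (log2 difference 2.83, SE 0.29, adjusted p = 5.48e-04) and 14.5-fold higher after PBS (3.86, SE 0.33, adjusted p = 1.48e-04). Its range over the 11 arrays, 5.45, was the widest of the 10, where the median gene had a range of 0.65.

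Irf4, of light-chain rearrangement and plasma cells, had levels of 5.66, 5.70 and 5.85 in Ly-6D+ CLPs after CpG, against 4.15, 4.61 and 4.89 in Ly-6D- CLPs after CpG. The levels after PBS were 5.63 and 5.98 in Ly-6D+ CLPs, against 4.94, 5.11 and 4.66 in Ly-6D- CLPs. Ly-6D+ arrays were higher throughout, and within each population the treatments overlapped. Irf4 was 2.28-fold higher in Ly-6D+ CLPs after CpG (log2 difference 1.19, SE 0.19, adjusted p = 0.00801). The difference after PBS, 0.90 (SE 0.21), missed the threshold with an adjusted p of 0.0614, and passed without the first Ly-6D- CpG array (0.0294) or the third (0.0418). It also passed with the dimmest 33.3% of genes left out, with a variance trend and robust estimation, with a further quantile normalisation and with arrays centred on their medians (adjusted p of 0.0403 to 0.0447). With 1 array left out at a time, the adjusted p of this difference ranged from 0.0294 to 0.304.

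Bach2, the repressor, had levels of 6.54, 6.46 and 6.52 in Ly-6D+ CLPs after CpG, against 5.48, 5.89 and 5.57 in Ly-6D- CLPs after CpG. After PBS they were 6.29 and 6.44 in Ly-6D+ CLPs, against 6.12, 5.30 and 5.53 in Ly-6D- CLPs. No Ly-6D- array reached the Ly-6D+ arrays, although the first Ly-6D- array after PBS came close. After CpG the difference of 0.86 (SE 0.19, 1.81-fold) passed with an adjusted p of 0.0455. That call was lost under several settings, among them when any 1 of the 6 CpG arrays, of the 2 Ly-6D+ PBS arrays or the third Ly-6D- PBS array was left out, with adjusted p values of 0.0598 to 0.157, and with arrays centred on their medians (0.0542). After PBS the difference of 0.72 (SE 0.21, adjusted p = 0.145) did not pass, and without the first Ly-6D- PBS array it was 0.95 with an adjusted p of 0.0166. Over all fits with 1 array left out, the adjusted p of this difference ranged from 0.0166 to 0.419. Another probe set, which carries the symbols of both Bach2 and its antisense transcript Bach2os, was not used.

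For both members of the Ikaros family no population difference passed. Ikzf1 had levels of 9.84, 9.79 and 9.92 in Ly-6D+ CLPs after CpG, against 9.38, 9.36 and 9.56 in Ly-6D- CLPs after CpG. After PBS they were 9.68 and 9.86 in Ly-6D+ CLPs, against 9.68, 9.53 and 9.57 in Ly-6D- CLPs. The populations overlapped after PBS and not after CpG. The Ikzf1 difference was 0.42 after CpG (95% confidence interval 0.20 to 0.63, adjusted p = 0.0600) and 0.18 after PBS (-0.07 to 0.42, adjusted p = 0.614). The difference after CpG passed without the third Ly-6D- CpG array (adjusted p = 0.0452), with the dimmest 33.3% of genes left out (0.0342), with array weights (0.0463) and with a variance trend and robust estimation (0.00749). With 1 array left out at a time, its adjusted p ranged from 0.0452 to 0.206.

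Ikzf3 had levels between 3.16 and 3.40 on every array, with group means of 3.27 in Ly-6D+ CLPs after CpG, 3.32 in Ly-6D+ CLPs after PBS and 3.33 in both Ly-6D- groups. The Ikzf3 difference was -0.06 after CpG (interval -0.25 to 0.13) and -0.01 after PBS (interval -0.22 to 0.21). The deposited values of Ikzf3 were identical on 5 of the 11 arrays, and detection calls were not used here, so whether its probe set was above background is unknown.

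The second comparison was CpG against PBS within each population. None of the 10 factors passed in Ly-6D+ CLPs by limma, where 0% of all genes were called lower, and 4 of the 10 had an unadjusted p under 0.05, all of them lower after CpG (Pou2af1, Foxo1, Lef1 and Ebf1). Of all genes, 6.51% had such an unadjusted p in that comparison, 749 of them with a lower level. In Ly-6D- CLPs none passed either, against 0.243% of all genes called lower, and the 2 with an unadjusted p under 0.05 were Ebf1 and Pou2af1, both lower after CpG. Of all 22180 genes, 2664 had such an unadjusted p in that comparison, 1255 of them with a lower level. A count of 2 in 10 was not tested against that share. Averaged over the populations, 1 factor, Pou2af1, fell, against 0.203% of all genes. The median change of the 10 was -0.30 in Ly-6D+ CLPs, -0.16 in the Ly-6D- population and -0.23 on average, beside medians over all genes of 0.00, -0.00 and 0.00.

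**Figure D3:**
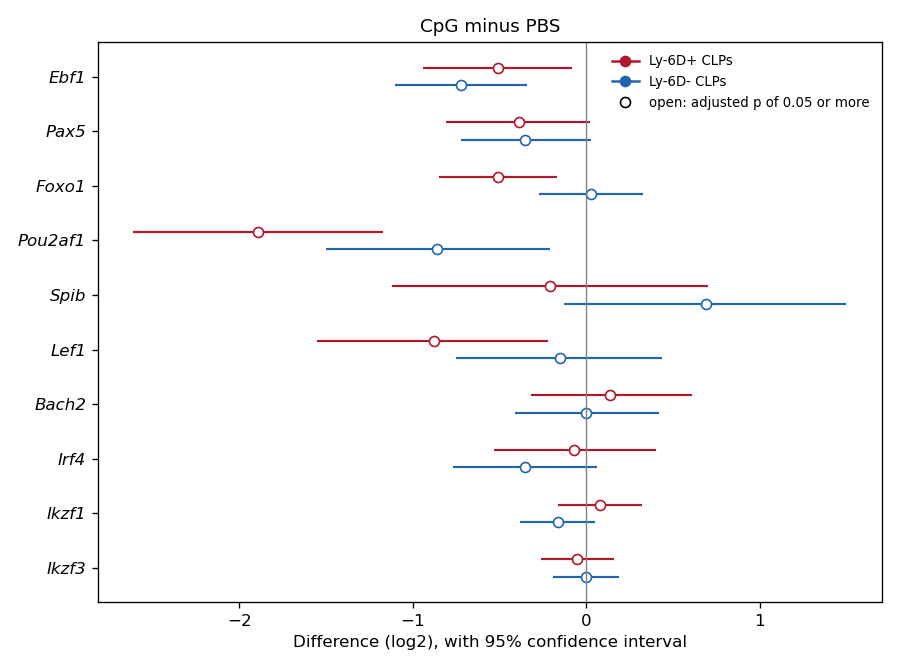
CpG minus PBS difference in level (log2) for each factor in the Ly-6D+ and the Ly-6D- population, with 95% confidence intervals from limma and open points for an adjusted p of 0.05 or more. All points are open, and the lowest is Pou2af1 in Ly-6D+ CLPs at -1.89.

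Pou2af1 had the largest CpG difference of the 10 in both populations. In Ly-6D+ CLPs its mean was 6.85 ± 0.37 after CpG and 8.74 ± 0.10 after PBS (SD, n = 3 and n = 2), a difference of -1.89 (SE 0.33, interval -2.61 to -1.17, adjusted p = 0.120). In Ly-6D- CLPs it was 4.02 ± 0.68 after CpG and 4.88 ± 0.13 after PBS (SD, n = 3 each), a difference of -0.86 (SE 0.29, adjusted p = 0.256). The Ly-6D- CpG levels of 3.98, 3.36 and 4.72 lay close to the array medians of 3.85 to 3.96. Detection calls were not used, so whether these levels were above background is unknown. No CpG array reached a PBS array of its population. On average Pou2af1 fell 2.59-fold (log2 change -1.37, SE 0.22, adjusted p = 0.0309). That call held without the first Ly-6D+ CpG array, the second Ly-6D- CpG array or the third Ly-6D- CpG array. It was lost without the second or the third Ly-6D+ CpG array, either Ly-6D+ PBS array, the first Ly-6D- CpG array or any of the 3 Ly-6D- PBS arrays, with adjusted p values of 0.0625 to 0.117 and changes of -1.41 to -1.30. The change differed between the populations by -1.03 (SE 0.44), with an unadjusted p of 0.0381 and an adjusted p of 0.770.

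Ebf1 had a CpG difference of -0.51 (SE 0.19, adjusted p = 0.669) in Ly-6D+ CLPs and -0.72 (SE 0.17, adjusted p = 0.112) in the Ly-6D- population. Every CpG array lay below every PBS array of its population, yet the average of -0.62 (SE 0.13, adjusted p = 0.0837) did not pass. With a variance trend and robust estimation Ebf1 passed in Ly-6D- CLPs (adjusted p = 0.0475) and on average (adjusted p = 0.034). Leaving out the third Ly-6D- CpG array changed several of these calls. Without it Ebf1 passed in Ly-6D- CLPs (-0.89, adjusted p = 0.0334) and on average (-0.70, adjusted p = 0.0247), and Pou2af1 passed in Ly-6D+ CLPs (-1.89, adjusted p = 0.043) and in the Ly-6D- population (-1.21, adjusted p = 0.0396). With other arrays left out, the adjusted p of Ebf1 reached 0.293 in Ly-6D- CLPs and 0.222 on average. That of Pou2af1 reached 0.339 in Ly-6D+ CLPs and 0.539 in the Ly-6D- population.

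Genes that define CLPs and markers of myeloid cells were also compared between CpG and PBS arrays. Of the 5 measured CLP-defining genes, 2 fell with CpG in the Ly-6D- population, against 0.243% of all genes. They were Il7r, the receptor of interleukin-7 (-0.81, adjusted p = 0.03), and Rag2, of the recombinase (-0.75, adjusted p = 0.0221). None of the 5 passed in Ly-6D+ CLPs, and on average only Rag2 did (-0.45, adjusted p = 0.0469). The mean of the 5 was 9.82 to 10.10 on Ly-6D- CpG arrays, against 10.37 to 10.45 on Ly-6D- PBS arrays. Of 13 granulocyte and monocyte markers none passed in either population, and their median CpG difference was 0.08 in the Ly-6D- population and 0.02 in Ly-6D+ CLPs. In each population 7 of the 13 lay higher after CpG and 6 lower. Single markers lay further apart: in Ly-6D- CLPs Ctsg, a protease of granules, averaged 11.02 after CpG and 9.93 after PBS (adjusted p = 0.104). Csf1r, the receptor of macrophage colony-stimulating factor, averaged 8.68 after CpG and 7.61 after PBS there (adjusted p = 0.0524). Prtn3, another granule protease, averaged 10.26 after CpG and 9.22 after PBS (adjusted p = 0.0787). Mpo, the peroxidase of granulocytes, averaged 9.15 in Ly-6D+ CLPs after CpG and 10.02 after PBS (adjusted p = 0.287). Ctsg, Csf1r and Mpo were named because they had the smallest p values of their list for the average CpG change. Prtn3, and the population shown for each of the 4, were chosen after their values were seen. The part of these genes in the values of Ebf1 and Pou2af1 was not tested.

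The third Ly-6D- CpG array was the highest of its group for 6 of the 10 factors (Ebf1, Pax5, Foxo1, Pou2af1, Irf4 and Ikzf1) and the lowest for 3 (Spib, Lef1 and Ikzf3). Its mean over 5 CLP-defining genes was 10.10, against 9.84 and 9.82 on the other arrays of the group. Its mean over 13 granulocyte and monocyte markers was 9.22, against 9.53 and 9.49 on those arrays. The part of these cells in the result was not tested.

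The Ly-6D+ arrays did not overlap between treatments, CpG lower, for 5 factors (Ebf1, Pax5, Foxo1, Pou2af1 and Lef1), against 9.76% of all genes. In Ly-6D- CLPs this held for 2 (Ebf1 and Pou2af1), against 7.20% of all genes. Lef1 had a difference of -0.88 (SE 0.30, adjusted p = 0.592) in Ly-6D+ CLPs and -0.15 (SE 0.27, adjusted p = 0.892) in the Ly-6D- population. Foxo1 had -0.51 (SE 0.15, adjusted p = 0.525) in Ly-6D+ CLPs and 0.03 (SE 0.14, adjusted p = 0.960) in the Ly-6D- population, and its second probe set gave -0.12 in Ly-6D+ CLPs and 0.21 in the Ly-6D- population. Pax5 had -0.39 (SE 0.19) in Ly-6D+ CLPs and -0.35 (SE 0.17) in the Ly-6D- population. None of these passed.

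Spib had a CpG difference of -0.21 (interval -1.12 to 0.70) in Ly-6D+ CLPs and 0.69 (interval -0.13 to 1.50) in the Ly-6D- population, where its SD of 0.85 after CpG was the largest of any factor in any group. Irf4 had -0.07 in Ly-6D+ CLPs and -0.35 in the Ly-6D- population. Bach2 had 0.14 in Ly-6D+ CLPs (adjusted p = 0.975), with a lowest CpG array of 6.46 and a highest PBS array of 6.44, and 0.00 in Ly-6D- CLPs. The probe set shared with Bach2os averaged 5.72 after CpG and 5.90 after PBS in Ly-6D+ CLPs. Ikzf1 had 0.08 in Ly-6D+ CLPs and -0.16 in the Ly-6D- population, and Ikzf3 had -0.05 in Ly-6D+ CLPs and 0.00 in the Ly-6D- population. For 5 of the 10 (Ebf1, Pou2af1, Spib, Lef1 and Irf4) the SD was largest among the Ly-6D- CpG arrays. A direct test of the difference between the CpG effects in the populations called none of the 10 and 0% of all genes by limma. Foxo1 (-0.54) and Pou2af1 (-1.03) had unadjusted p values under 0.05 there, as did 1413 of the 22180 genes.

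The members were next set beside genes that Ebf1 and Pax5 are known to activate, from a list of 15 of which 13 were measured. This list too was chosen with earlier results of these data known. After CpG, 8 of the 13 were higher in Ly-6D+ CLPs, against 1.20% of all genes, and none lower (median difference 1.93). After PBS 10 were higher, against 1.18% of all genes, and none lower (median difference 1.50). Igll1, a surrogate light chain of the pre-B-cell receptor, was higher in Ly-6D+ CLPs after PBS by a log2 difference of 5.76 (SE 0.23, adjusted p = 1.68e-06). Cd79a, a signalling chain of that receptor, was higher by 4.85 (SE 0.29, adjusted p = 1.40e-05) and Vpreb3, which assists receptor assembly, by 3.79 (SE 0.21, adjusted p = 1.00e-05). Vpreb2 (5.01) and Vpreb1 (0.16) are near-identical genes, so their separate differences after PBS are uncertain.

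**Figure D4:**
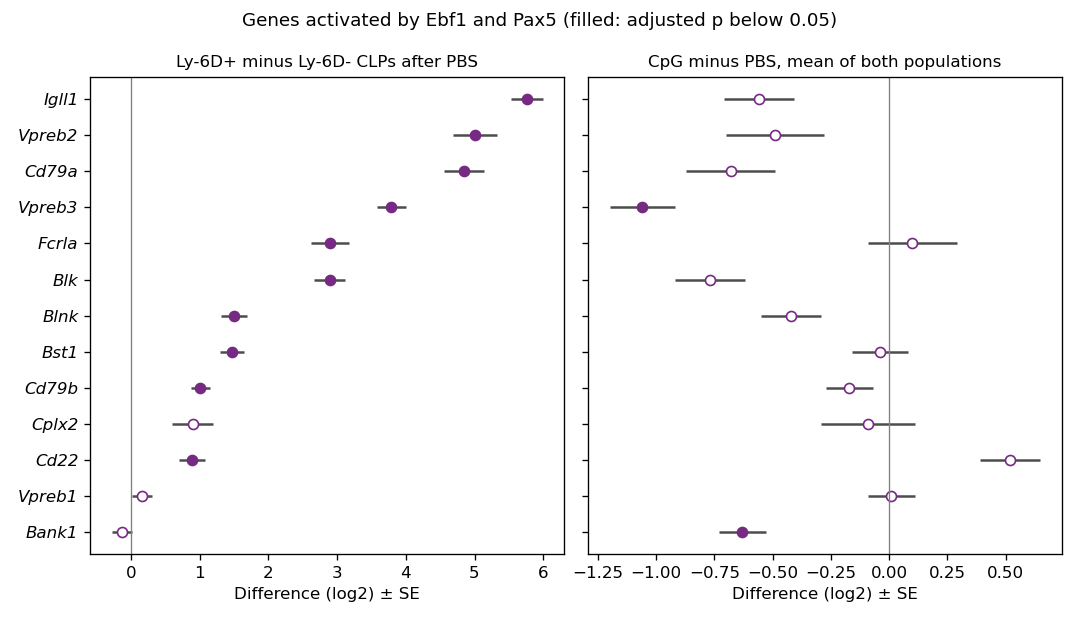
Left, difference in level (log2 ± SE) between Ly-6D+ and Ly-6D- CLPs after PBS for the 13 measured genes activated by Ebf1 and Pax5. Right, CpG minus PBS averaged over both populations for the same genes, with filled points for an adjusted p below 0.05, where Vpreb3 (-1.06) and Bank1 (-0.63) are filled.

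With CpG, averaged over the populations, 2 of the 13 fell, against 0.203% of all genes. They were Vpreb3 (-1.06, SE 0.14, adjusted p = 0.0152) and Bank1, a B-cell scaffold protein (-0.63, SE 0.10, adjusted p = 0.0309). Between the populations after PBS, Bank1 had a difference of -0.13 (adjusted p = 0.831). Blk, a Src-family kinase of B cells, had -0.77 (SE 0.15, adjusted p = 0.0576) and did not pass, and the median of the 13 was -0.42. The mean over these 13 genes lay between 7.53 and 7.65 on the Ly-6D+ CpG arrays, against 7.95 and 8.04 on the Ly-6D+ PBS arrays. In Ly-6D- CLPs it lay between 5.28 and 5.47 after CpG, against 5.50 to 5.68 after PBS. These means did not overlap between the treatments in either population. The nearest Ly-6D- arrays were at 5.47 after CpG and 5.50 after PBS. Of all single genes, 9.76% (Ly-6D+) and 7.20% (Ly-6D-) were lower after CpG without overlap. The same share for means over 13 genes was not computed. On average over the populations, 10 of the 13 had a negative change and 3 a positive one. The highest was Cd22 (0.52, limma adjusted p = 0.123). Within the Ly-6D- population 8 were negative and 5 positive.

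A list of other regulators of early lymphoid and B-cell development held 22 genes, all measured. After CpG 3 were higher in Ly-6D+ CLPs (1.20% of all genes) and 1 lower (0.938% of all genes). The higher ones were Id3, an inhibitor of E proteins (1.76, adjusted p = 0.0106), the E protein Tcf4 (0.64, adjusted p = 0.00781) and Ets1 (0.74, adjusted p = 0.0475), and the lower one was Spi1, the Ets factor PU.1 (-0.79, adjusted p = 0.00944). After PBS 1 was higher, again Id3 (1.63, SE 0.33, adjusted p = 0.0324), against 1.18% of all genes, and none lower, with a median of 0.04. With CpG, averaged over the populations, none of the 22 passed, the smallest p values being those of Id2 (0.44, adjusted p = 0.216), Spi1 (0.30) and Ets1 (-0.39).

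Of 34 listed relatives of the members in the same gene families, 30 were measured. After CpG none was higher in Ly-6D+ CLPs and 1 lower, Spi1, a relative of Spib, against 0.938% of all genes. After PBS 1 was higher, against 1.18% of all genes, and none lower. This was Irf8, a factor of dendritic, myeloid and B cells (0.72, SE 0.10, adjusted p = 0.00404). Averaged over the populations, 1 fell with CpG, Tcf7l2, a relative of Lef1 (-0.68, SE 0.08, adjusted p = 0.00853), against 0.203% of all genes. The median of the 30 was -0.02 for this average and -0.04 between the populations after PBS.

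Of 21 measured transcription factors of other lineages, 7 were lower in Ly-6D+ CLPs after CpG and none higher, where 0.938% of all genes were lower. After PBS 5 were lower, against 0.798% of all genes, and 1 higher, again Irf8. The median of the 21 was -0.17 after CpG and -0.30 after PBS. Nfil3, needed for innate lymphoid cells, had a difference after PBS of -1.49 (SE 0.17, adjusted p = 0.00109), and Gata2, a factor of stem, mast and basophil cells, one of -1.84 (SE 0.25, adjusted p = 0.00385). With CpG, averaged over the populations, 2 rose, against 0.280% of all genes, and none fell. These were Batf3, known from conventional dendritic cells (0.92, SE 0.15, adjusted p = 0.0309), and Klf4, known from monocytes (0.70, SE 0.12, adjusted p = 0.037). The Klf4 change was 0.05 (adjusted p = 0.988) in Ly-6D+ CLPs and 1.34 (adjusted p = 0.0101) in the Ly-6D- population, and the difference of these effects, -1.29, had an adjusted p of 0.488. Batf3 had differences of 0.94 in Ly-6D+ CLPs (adjusted p = 0.291) and 0.91 in the Ly-6D- population (adjusted p = 0.0755), and neither passed.

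Markers of other cell types were read on the same arrays. Of 6 plasmacytoid dendritic cell markers, 5 were higher in Ly-6D+ CLPs after CpG (1.20% of all genes) and 4 after PBS (1.18% of all genes). Siglech was higher by 2.95 after CpG and by 2.77 after PBS (adjusted p = 4.93e-07 and 2.27e-06). The mean of the 6 lay between 8.63 and 8.84 on Ly-6D+ CpG arrays and at 8.40 and 8.77 on Ly-6D+ PBS arrays. On Ly-6D- arrays it was 7.07 to 7.50 after CpG and 7.25 to 7.44 after PBS. On the first Ly-6D- CpG array, where Spib was highest in its group, that mean was 7.07, the lowest of the 11 arrays. Klk1 spread most of the 6 markers in that group (2.48 to 5.05, SD 1.29), where Siglech ranged from 7.69 to 8.03. The part of plasmacytoid dendritic cells in the population differences of Spib and the other factors was not tested.

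Of 13 granulocyte and monocyte markers, 4 were lower in Ly-6D+ CLPs after CpG and none passed after PBS. Their mean was 8.65 to 8.95 on Ly-6D+ CpG arrays and 8.53 to 9.09 on Ly-6D+ PBS arrays, against 9.22 to 9.53 on Ly-6D- CpG arrays and 9.07 to 9.34 on Ly-6D- PBS arrays. Of 8 mature B-cell and plasma-cell markers 1 was higher in Ly-6D+ CLPs after CpG, Sdc1, a surface proteoglycan of plasma cells (1.32, adjusted p = 0.00236), and none passed after PBS. Their mean was 5.07 to 5.18 on Ly-6D+ CpG arrays and 5.08 to 5.24 on Ly-6D+ PBS arrays, against 4.62 to 4.77 on Ly-6D- CpG arrays and 4.78 to 5.05 on Ly-6D- PBS arrays. No T-cell marker of 6, no NK-cell marker of 5 and no erythroid marker of 3 passed in either population comparison. Of 3 conventional dendritic cell markers, 1, Itgax, was higher in Ly-6D+ CLPs after CpG (0.86) and after PBS (1.38). Over all genes, 1.20% were higher and 0.938% lower in Ly-6D+ CLPs after CpG, and 1.18% and 0.798% after PBS. With CpG, averaged over the populations, no marker of these 7 cell types passed by limma, and none passed in either population alone. RMA values on the log2 scale have no true 0, so no marker can be called absent.

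The genes whose pattern over the 11 arrays lay nearest to Ebf1, Pax5 and Pou2af1 were found by the root mean square difference between values centred on each gene's own mean. Numbered and predicted symbols, such as those with Gm or Rik, were passed over. For Ebf1 they were Mzb1 (0.29), Cecr2 (0.32), Vpreb3 (0.35), Akap12 (0.42) and Blk (0.43), all as differences on the log2 scale. For Pax5 they were Siglech and Atp1b1 (0.29 each), Pde2a (0.32), Xkrx (0.35) and Rnase12 (0.36). For Pou2af1 they were Vpreb3 (0.31), Blk (0.50), Ebf1 (0.57), Mzb1 (0.58) and Akap12 (0.63). Within the 10, Pou2af1 was the nearest to Ebf1 (0.57) and Lef1 the nearest to Pax5 (0.50). The arrays share their populations and treatments, so these distances describe only the samples at hand.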

How the data were processed

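Sorted CLPs were profiled on 11 arrays, and each array's title gave its group. Per the labels' protocols, 5 ng of RNA was amplified to cDNA and 5 µg of it labelled. The values as deposited are log2 levels, and Partek's RMA produced them, per the submitters' processing notes. Versions and settings were not given there. RMA subtracts background, equalises distributions between arrays and combines probes, so levels compare arrays and not genes.

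The table held 41345 probe sets, of which 23521 had exactly 1 symbol in the supplied annotation. For each of 22180 genes the set with the highest mean was kept, and 1814 sets with several symbols were left out. limma 3.58.1 in R 4.3.3 fitted a mean for each of the 4 groups (lmFit and eBayes defaults, 7 residual and 3.48 prior degrees of freedom). The threshold was 0.05 for p values adjusted by Benjamini-Hochberg over all 22180 genes. The model was tested on simulated arrays with known changes and independent noise. Pairing and outlying arrays were not part of that simulation. Tables and figures came from pandas 2.3.3 and matplotlib 3.10.9 in Python 3.11.15.

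The members and gene lists were chosen with earlier results of these data known. Named beside the members were up to 3 genes of each list with the smallest p between the populations after PBS and up to 3 for the average CpG change, the 5 genes nearest in pattern to Ebf1, Pax5 and Pou2af1, and Ly6d. Vpreb1, Vpreb2, Cd22, Prtn3 and Klk1 were chosen after their values were seen. Alternatives changed the probe sets, the filter on dim genes, the variance model, array weights, the normalisation, the groups fitted, a replicate block and the arrays included. No batch was named in the labels. Same-numbered arrays were not shown to be paired.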

Additional observations from a re-analysis of the deposited data

Results flagged for a closer look

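The CpG differences of Ikzf1 had opposite signs in the populations, but neither was told from 0. The 95% confidence intervals from limma were -0.16 to 0.32 in Ly-6D+ CLPs and -0.38 to 0.05 in Ly-6D- CLPs. Every Ly-6D+ CpG array lay above the mean of the Ly-6D+ PBS arrays, and every Ly-6D- CpG array lay below the mean of the Ly-6D- PBS arrays. The means were 9.85 in Ly-6D+ CLPs after CpG and 9.77 after PBS, against 9.43 in Ly-6D- CLPs after CpG and 9.59 after PBS. The difference between the effects was 0.24 on the log2 scale (SE 0.15, limma adjusted p = 0.843), which did not pass. Groups held 2 or 3 arrays, so single arrays were not screened for outlying values.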

How the results depend on the processing

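Each of the 60 differences (10 factors in 6 comparisons) was recomputed under up to 21 settings, and 1146 of the 1210 resulting values kept their direction and their side of the threshold. The count of factors that passed was 7 to 9 after CpG and 6 to 7 after PBS between the populations under all of these settings. With a variance trend and robust estimation it became 1 for CpG in Ly-6D- CLPs, where it was 0, and 2 for the average, where it was 1. When an array was left out the count ranged between 0 and 1 in Ly-6D+ CLPs, between 0 and 2 in Ly-6D- CLPs and between 0 and 2 for the average. With the replicate number as a block it was 7 after CpG, where Bach2 was lost (adjusted p = 0.0799), 6 after PBS, 1 for the average and 0 for the other comparisons. With the block within treatment Bach2 was lost too (adjusted p = 0.127). Same-numbered arrays had correlations of -0.03 to 0.18 (15 pairs, 2 of them over 0.1). Differently numbered arrays had correlations of -0.13 to 0.09 (30 pairs, 0 of them over 0.1). These values do not settle whether the numbers pair the arrays, and the main fit left the arrays unpaired.

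The sign turned in 26 values, over 14 differences, none of which had passed. With arrays left out, the CpG difference in Ly-6D+ CLPs ranged between -0.24 and 0.11 for Irf4, -0.01 and 0.17 for Ikzf1, and -0.08 and 0.00 for Ikzf3. In Ly-6D- CLPs it ranged between -0.09 and 0.10 for Foxo1, -0.42 and 0.18 for Lef1, -0.17 and 0.24 for Bach2, and -0.03 and 0.03 for Ikzf3. The average ranged between -0.02 and 0.19 for Bach2, -0.08 and 0.00 for Ikzf1, and -0.04 and 0.00 for Ikzf3. The difference of the effects ranged between -0.20 and 0.07 for Pax5, -0.09 and 0.32 for Bach2, and -0.08 and 0.00 for Ikzf3. The Ikzf3 population difference after PBS ranged between -0.02 and 0.01, and was 0.00 after a further quantile normalisation and 0.03 with arrays centred on their medians. The causes were not tested. With 2 or 3 arrays a group, a missed threshold does not show that levels were equal.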
